A study of Drosophila melanogaster with 4 samples.

Results

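The septin genes and the eggshell gene dec-1 were followed in small RNAs bound to Piwi, in ovarian somatic cells (OSC) of Drosophila melanogaster. They are 6 of the 13931 gene rows of the deposited table, chosen by row name and not by value. The row pnut is listed under its own symbol, and the other 5 rows carry the numbers 41882, 41883, 41885, 41886 and 41973 in place of a name. These numbers are read here as spreadsheet dates that replaced the symbols Sep1, Sep2, Sep4, Sep5 and dec-1, an inference set out after the background.

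OSC are a cultured line of somatic origin from the fly ovary, grown at 26 degrees Celsius. The cells carried Flag-tagged Piwi, and RNA of 23 to 30 nucleotides was recovered from purified Flag-Piwi complexes. An siRNA against Yb (siYb) was given to the cells of all 4 libraries. Along with it 2 libraries received a plasmid for a Yb without its Hel-C domain, called Yb ΔHel-C, and 2 libraries received one for the intact protein, called Yb WT. Yb was thus supplied by transfection into cells of 1 line, and the sources used here do not give how much endogenous Yb remained.

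Piwi is the nuclear Argonaute protein that is guided by Piwi-interacting RNAs (piRNAs) to silence transposons. Yb, a protein with a Tudor domain, forms the cytoplasmic Yb bodies, where precursors of piRNAs collect. In ovarian somatic cells piRNAs are also made from the mRNAs of many protein-coding genes. Septins are GTP-binding proteins that assemble into filaments at the cell cortex and at the cleavage furrow during cytokinesis. In flies the products of Sep1, Sep2 and pnut form a complex. The gene dec-1 is unrelated to the septins by function. It encodes precursor proteins of the eggshell, which are made by the follicle cells of the ovary.

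The numbers fit 1 reading of spreadsheet dates. Spreadsheets store a date as a count of days, and with the day count that starts in 1904, long the default on the Macintosh, 41882 is 1 September 2018. By the same count 41883, 41885 and 41886 are 2, 4 and 5 September 2018, and 41973, which lies 91 days after the first, is 1 December 2018. With the other common day count the 5 numbers fall on 31 August, on 1, 3 and 4 September and on 30 November 2014. Of these dates, 1 and 4 September spell septin symbols, but 31 August, 3 September and 30 November spell no fly gene symbol or synonym in RefSeq. RefSeq's own synonym lists hold numbers of the same kind. They give 38960 for Septin1, 38961 for Septin2 and 39051 for dec, the current RefSeq symbols of Sep1, Sep2 and dec-1. Each of these 3 synonyms lies exactly 2922 days before the row number assigned here to the same gene, and by the Macintosh count they are 1 September, 2 September and 1 December 2010.

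The rest of the table fits the same reading. In RefSeq 9 genes have a symbol or synonym made of a month and a number. Of these, 4 (Cp36, nub, pdm2 and CG7484) are listed in the table under another name, and the 5 not listed under any name are exactly Sep1, Sep2, Sep4, Sep5 and dec-1. The table has 6 rows named by a number alone, and the remaining one, 312, matched no month-and-number symbol and was not used. The 5 symbols are used from here on under this inference.

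On the Release 6 (dm6) assembly, 3 of the 6 loci lie on the X chromosome. They are Sep1 (21358286 to 21361688), Sep4 (16684216 to 16695173) and dec-1 (7867161 to 7873222). Sep2 lies on 3R (20586129 to 20588356), and on 2R lie Sep5 (7960133 to 7961921) and pnut (8237271 to 8240297). All 6 are protein-coding, with 1 RefSeq transcript for Sep1 and 7 for Sep4. The table gives 1 number per gene and group, so whether reads lay in exons, introns or UTRs is not known here.

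The deposited values come as 1 column per group, in reads per 1000000 reads (RPM), although the labels give 2 libraries per group. No difference below therefore has a replicate check, and none was tested between the conditions. The values are whole multiples of 1 read, which gave totals of 2803305 reads for Yb ΔHel-C and 2955141 for Yb WT. Intervals are exact 95% intervals from the recovered reads and cover counting error only, not variation between libraries. Reads without molecular identifiers are not independent molecules, so the intervals may be too narrow even for counting error. Of the fixed marker genes, the 5 ovarian somatic ones summed to 9628 RPM in Yb ΔHel-C and 9169 RPM in Yb WT, against 14.6 RPM in Yb ΔHel-C and 12.9 RPM in Yb WT for the 5 germline ones. The somatic markers did not move together. The gene tj alone had fewer RPM in Yb ΔHel-C, with 4481 RPM there and 6972 RPM in Yb WT. The gene bowl had 4284 RPM in Yb ΔHel-C and 1571 RPM in Yb WT. Higher in Yb ΔHel-C too were zfh1 (764 RPM, 572 RPM in Yb WT), Fas3 (72.8 and 34.2) and eya (26.0 and 19.97). Most germline reads lay on bgcn, with 30 reads in Yb ΔHel-C and 29 in Yb WT, and each of vas, osk, nos and bam had at most 6 reads in either column. The gene of Yb itself, fs(1)Yb, had 645 RPM in Yb ΔHel-C and 406 RPM in Yb WT, which does not check the siRNA, since plasmid and endogenous transcripts are not separated.

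The septins with the most reads, pnut and Sep1, had nearly equal reads in Yb WT and unequal reads in Yb ΔHel-C. Reads on pnut were 3.16-fold higher in Yb ΔHel-C, whereas those on Sep1 were 1.78-fold higher. The share of pnut in all septin reads was 61.2% in Yb ΔHel-C (interval 59.3% to 63.2%) and 47.3% in Yb WT (44.2% to 50.3%). Shares and ratios between genes of the same column do not depend on how the columns are scaled. The ratios to Yb WT do depend on it, as given further on. The RNA came from many cells at once, so fewer cells with such reads and fewer reads per cell cannot be told apart.

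The gene pnut, or peanut, was the first septin described in the fly and is needed for cytokinesis in its imaginal tissues. It had 1469 reads in Yb ΔHel-C, a level of 524 RPM (498 to 552), against 490 reads in Yb WT, a level of 166 RPM (151 to 181). The ratio of RPM was 3.16 (2.85 to 3.51). On log2 of RPM + 0.5, the scale used for all log2 folds here, the fold was 1.66. Of the 1224 genes that averaged between 100 and 1000 RPM, 92.6% had a lower log2 fold than pnut.

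Sep1 encodes a septin that copurifies with the pnut product. It had 821 reads in Yb ΔHel-C, a level of 293 RPM (273 to 314), against 486 reads in Yb WT, a level of 164 RPM (150 to 180). The ratio of 1.78 (1.59 to 2.00) gave a log2 fold of 0.83, which lay close to the median of 0.89 over all 7577 tested genes. In the same range of levels as for pnut, 61.4% of genes had a lower log2 fold than Sep1.

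Sep2 encodes the remaining septin of the complex and had far fewer reads. It had 44 reads in Yb ΔHel-C, a level of 15.7 RPM (11.4 to 21.1), against 13 reads in Yb WT, a level of 4.40 RPM (2.34 to 7.52). The ratio of 3.57 (1.89 to 7.22) was of the same size as that of pnut, with a much wider interval. The log2 fold of 1.73 was above that of 84.0% of the 3209 genes that averaged between 10 and 100 RPM.

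Sep4 and Sep5 encode septins outside the purified complex. Sep4 had 54 reads in Yb ΔHel-C (19.3 RPM, 14.5 to 25.1) and 41 reads in Yb WT (13.9 RPM, 9.96 to 18.8). Its ratio of 1.39 had an interval of 0.908 to 2.14 that includes no difference, and only 19.5% of the 3209 genes of its range had a lower log2 fold. Sep5, a copy of Sep2 that arose by retroposition, had 11 reads in Yb ΔHel-C (3.92 RPM, 1.96 to 7.02) and 7 reads in Yb WT (2.37 RPM, 0.952 to 4.88). Its ratio of 1.66 (0.586 to 5.04) was too imprecise to show a difference at this depth. Short reads may match both Sep2 and Sep5, and the authors' rule for such reads is not given, so how reads were divided between these genes is uncertain.

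The eggshell gene dec-1 had the most reads of the 6. It had 1505 reads in Yb ΔHel-C, a level of 537 RPM (510 to 565), against 897 reads in Yb WT, a level of 304 RPM (284 to 324). The ratio of 1.77 (1.63 to 1.92) and the log2 fold of 0.82 were nearly those of Sep1. For every read on dec-1 there were 0.546 reads on Sep1 in Yb ΔHel-C and 0.542 in Yb WT.

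**Figure D1:**
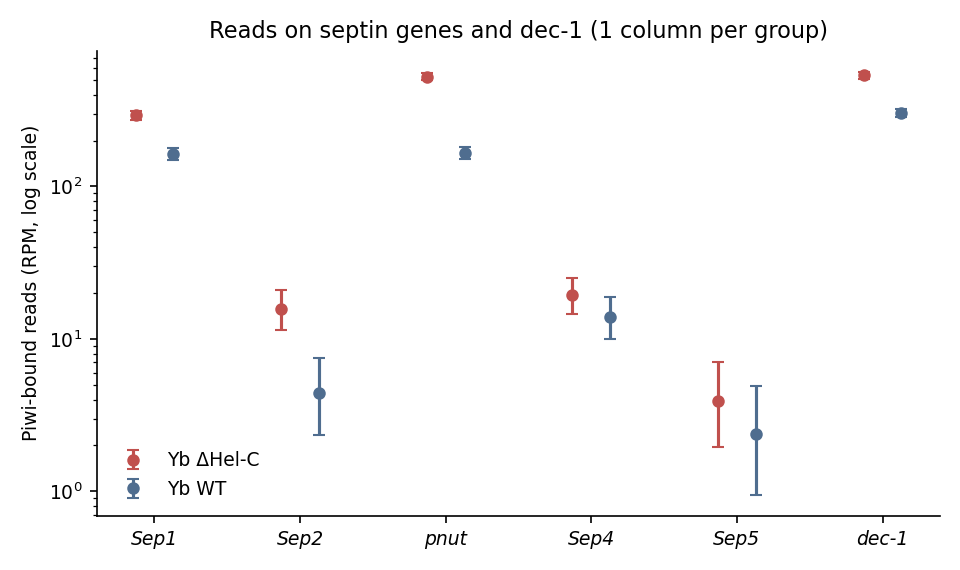
Level of Piwi-bound reads on the 5 septin genes and dec-1 in RPM on a log axis, with Yb ΔHel-C in red and Yb WT in blue. Points are the authors' value of each group and bars are exact 95% Poisson intervals for counting error only. The levels of pnut and Sep1 nearly coincide in Yb WT (166 and 164 RPM), and in Yb ΔHel-C that of pnut is higher (524 against 293 RPM).

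Per kilobase of annotated locus, introns included, the 6 genes formed a high and a low set in both columns. In Yb ΔHel-C the levels per kilobase were 173 RPM for pnut (164 to 182), 88.6 RPM for dec-1 (84.1 to 93.2) and 86.1 RPM for Sep1 (80.3 to 92.2). In Yb WT the same 3 genes had 54.8 RPM per kilobase (50.03 to 59.8), 50.1 RPM (46.8 to 53.5) and 48.3 RPM (44.1 to 52.8), with overlapping intervals. The other 3 genes lay far below. Sep2 had 7.04 RPM per kilobase in Yb ΔHel-C and 1.97 in Yb WT, Sep5 had 2.19 and 1.32, and Sep4 had 1.76 and 1.27. The intervals of dec-1 and Sep1 overlapped in Yb ΔHel-C, and so did those of Sep5 and Sep4 in each column. In Yb WT that of Sep2 overlapped those of both Sep5 and Sep4 as well. The locus of Sep4 is the longest, at 10958 bases, and the lengths of spliced transcripts were not used here.

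All septin reads together came to 2399 reads in Yb ΔHel-C (856 RPM, 822 to 891) and 1037 reads in Yb WT (351 RPM, 329.9 to 373). The ratio of RPM was 2.44 (2.27 to 2.63), and without pnut the other 4 septins together had a ratio of 1.79 (1.61 to 2.00). Shares of septin reads sum to 100%, so the higher share of pnut in Yb ΔHel-C means a lower share for the others together. The share of Sep1 in septin reads was 34.2% in Yb ΔHel-C (32.3% to 36.2%) and 46.9% in Yb WT (43.8% to 49.96%). Sep4 made up 2.25% of septin reads in Yb ΔHel-C (1.70% to 2.93%) and 3.95% in Yb WT (2.85% to 5.33%). Sep2 made up 1.83% in Yb ΔHel-C and 1.25% in Yb WT, and Sep5 made up 0.459% in Yb ΔHel-C and 0.675% in Yb WT, with overlapping intervals for each gene.

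**Figure D2:**
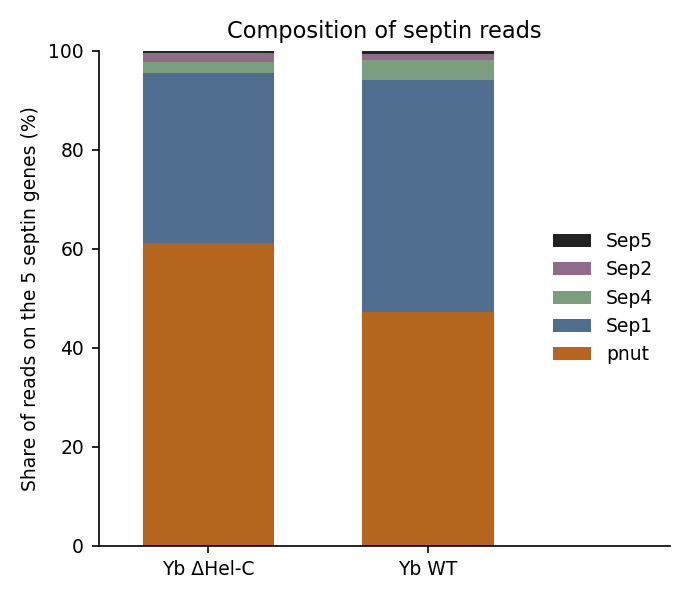
Share of the reads on the 5 septin genes that each gene held, in percent, for Yb ΔHel-C (2399 reads) and Yb WT (1037 reads). The segment of pnut covers 61.2% in Yb ΔHel-C and 47.3% in Yb WT, and that of Sep1 covers 34.2% and 46.9%.

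The ratios of the members were then set against each other, in 15 comparisons between 2 members with intervals not adjusted for their number. In 6 of them the 95% interval excluded equal ratios, and each of these 6 set pnut or Sep2 above Sep1, Sep4 or dec-1. The ratio of pnut was 1.77 times that of Sep1 (1.52 to 2.07), 1.79 times that of dec-1 (1.56 to 2.04) and 2.28 times that of Sep4 (1.46 to 3.53). The ratio of Sep2 was 2.00 times that of Sep1 (1.05 to 4.10), 2.02 times that of dec-1 (1.06 to 4.10) and 2.57 times that of Sep4 (1.17 to 5.87). In the other 9 comparisons the interval included equal ratios. For pnut against Sep2 it ran from 0.434 to 1.69, and for Sep1 against dec-1, the narrowest of the 9, from 0.874 to 1.16. The comparisons share members and reads of the same libraries, and none of these intervals holds the variation between libraries. How often pairs drawn from all genes would exclude equal ratios was not counted. The log2 folds of all 7577 tested genes had an interquartile range of 0.24 to 1.44. The 6 differences are therefore not shown to be particular to the members.

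Against the whole table the share of members past 2-fold was not above the background. Genes averaging 1 RPM or more over both columns were tested, 7577 in all, and one was counted as 2-fold higher or lower for a log2 fold of at least 1 in size. Of the 6 members, all of which passed this minimum in each column, pnut and Sep2 were 2-fold higher, none was 2-fold lower and 4 were neither. Of all tested genes 44.9% were 2-fold higher and 4.98% were 2-fold lower. The median log2 fold was 0.83 over the members and 0.89 over all tested genes, with an interquartile range of 0.24 to 1.44.

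**Figure D3:**
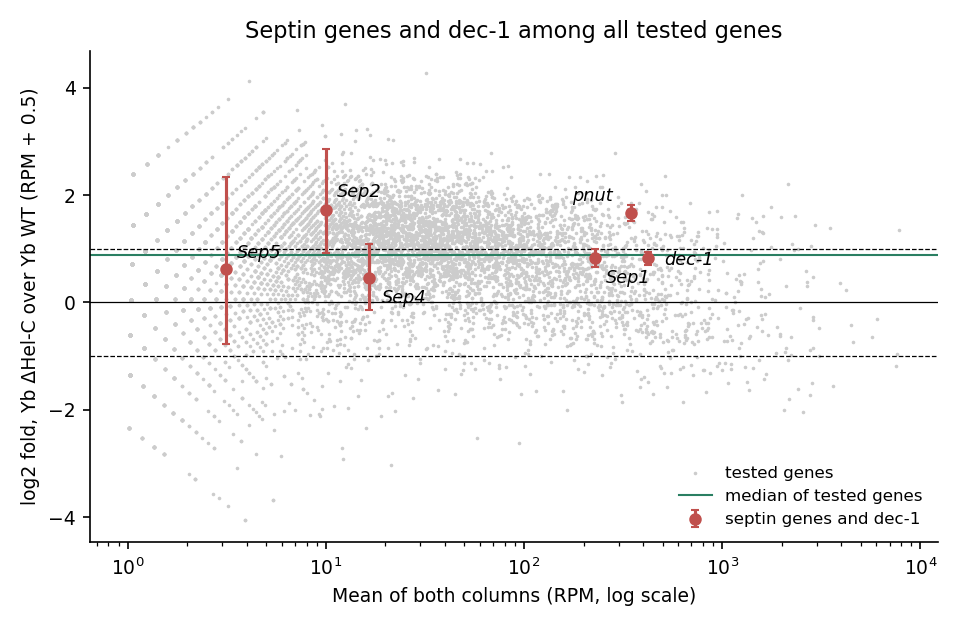
Log2 fold of Yb ΔHel-C over Yb WT on RPM + 0.5 against the mean RPM of both columns on a log axis, with the 7577 tested genes in grey, their median as a green line, 2-fold limits dashed and the 6 members in red with 95% counting intervals of the ratio. Sep1 and dec-1 lie at the median, pnut and Sep2 lie above the 2-fold limit, and Sep4 and Sep5 lie below the median with intervals that extend below 0.

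The direction for most members depended on the scaling. With edgeR's TMM factors the median log2 fold of all genes moved by -0.79, and with its RLE factors by -0.84. The log2 folds of pnut were then 0.82 and 0.77 and those of Sep2 were 0.93 and 0.89, still above 0 but under 2-fold. Those of Sep1 were -0.011 and -0.060, those of dec-1 were -0.021 and -0.070, and those of Sep4 and Sep5 turned negative too. Scaled to gene reads, every member's log2 fold stayed above 0, from 0.17 for Sep4 to 1.47 for Sep2. Relative to the median of all genes, pnut lay 0.76 higher on the authors' totals, 0.71 with TMM and 0.71 with RLE. The difference of Sep1 from that median was -0.062 on the authors' totals and -0.11 with either set of factors.

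**Figure D4:**
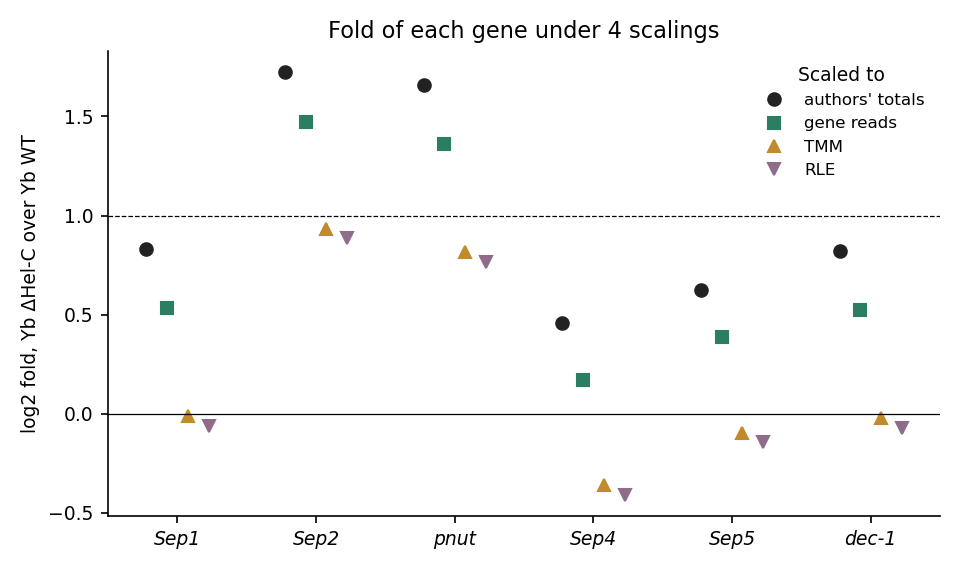
Log2 fold of each member, Yb ΔHel-C over Yb WT, with the columns scaled to the authors' totals, to the gene reads alone, by TMM factors or by RLE factors. The solid line marks no difference and the dashed line 2-fold. Only pnut and Sep2 stay above 0 under all 4 scalings, and with TMM neither reaches 2-fold (0.82 and 0.93).

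Other genes of the cleavage furrow and of septin binding were read from a list of 22 genes, all of which were measured. Of these, 12 were 2-fold higher in Yb ΔHel-C, 10 were neither and none was 2-fold lower. The list had a median log2 fold of 1.12, and 21 of the 22 values were above 0. This compares with 44.9% of all genes 2-fold higher and a median of 0.89. With TMM or RLE factors 14 values were above 0 and 8 below, and the list's median was 0.28 with TMM and 0.23 with RLE, against 0.10 and 0.054 for all genes.

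Genes whose products bind or recruit septins were among the 12 genes of the list that were 2-fold higher. These 12 were 54.5% of the list, against 44.9% of all tested genes. The anillin gene scra, whose product links septins to the contractile ring, had 105 RPM in Yb ΔHel-C and 34.5 RPM in Yb WT, a ratio of 3.05 (2.43 to 3.86). The genes named for septin interaction had ratios of 3.30 for sip3 (2.47 to 4.46), 2.27 for sip2 (1.54 to 3.39) and 2.71 for sip1 (1.08 to 7.68), the last from 18 reads in Yb ΔHel-C and 7 in Yb WT. Cdc42, a small GTPase that organises the cell cortex, had 524 RPM in Yb ΔHel-C and 182 RPM in Yb WT, a ratio of 2.87 (2.60 to 3.17). Orc6, a replication factor whose product binds that of pnut, had 18 reads in Yb ΔHel-C and 13 in Yb WT, a ratio of 1.46 (0.676 to 3.24).

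Genes of the contractile ring and its regulators were also among those counted as 2-fold higher. The citron kinase gene sti had the highest ratio, 3.98 (3.02 to 5.30), with 88.8 RPM in Yb ΔHel-C and 22.3 RPM in Yb WT. The cofilin gene tsr had a ratio of 3.65 (2.85 to 4.71). The ratios of tum and pav, which encode the GTPase-activating protein and the kinesin of the centralspindlin complex, were nearly equal, at 2.53 (1.79 to 3.61) and 2.52 (2.04 to 3.12). The myosin II genes zip and sqh, for the heavy chain and the regulatory light chain, had ratios of 2.32 (1.98 to 2.73) and 2.21 (1.92 to 2.54). Another myosin light chain gene of the list, Mlc-c, had a ratio of 1.51 (1.36 to 1.68) and was not 2-fold higher. Also not counted as 2-fold higher were cno (1.17), chic (1.63), feo (1.65), fwd (1.66) and polo (2.01, log2 fold 0.998). The intervals of tum and sqh, like those of sip1 and sip2, held the median ratio of 1.93 over all tested genes.

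The gene with the most reads on the list, dia, encodes a formin. It had 856 RPM in Yb ΔHel-C and 1053 RPM in Yb WT, a ratio of 0.813 (0.771 to 0.858), and was the only gene of the list with fewer RPM in Yb ΔHel-C on the authors' totals. With TMM factors sti and tsr alone of the list were 2-fold higher (log2 folds 1.14 and 1.01) and dia was 2-fold lower (-1.14). With RLE factors sti alone was 2-fold higher (1.09).

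**Figure D5:**
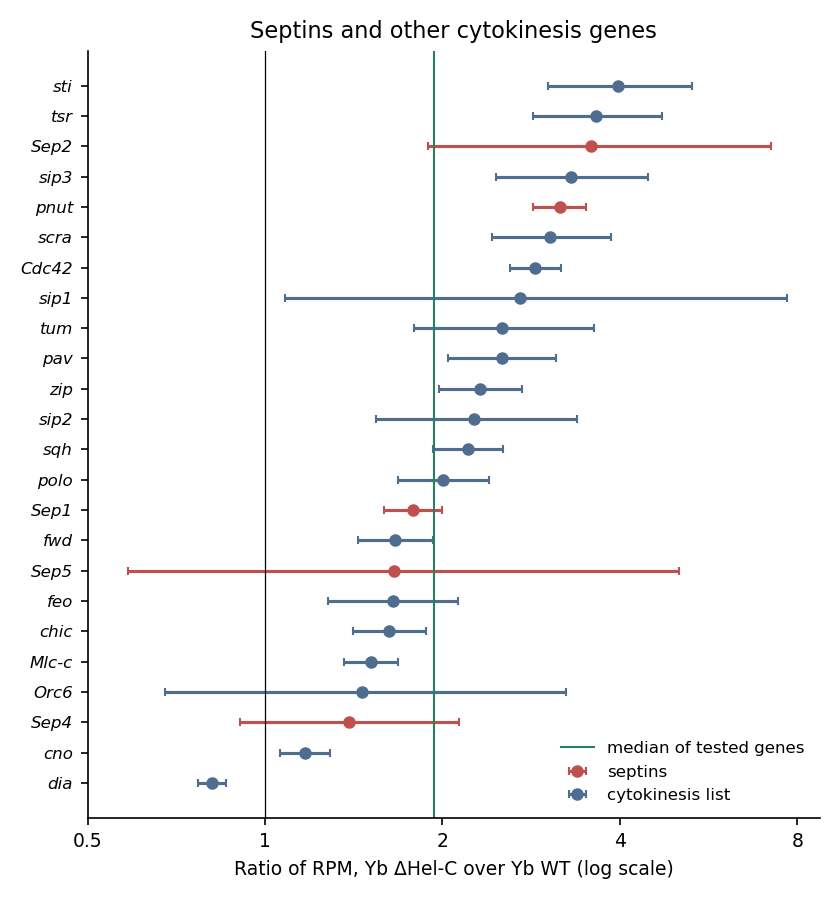
Ratio of RPM, Yb ΔHel-C over Yb WT, on a log axis for the 5 septin genes in red and 19 of the 22 genes of the cytokinesis list in blue, with exact 95% counting intervals. The green line is the median ratio of all tested genes (1.93), with pnut (3.16) near scra (3.05), and dia (0.813) is the only gene plotted left of 1 on the authors' totals.

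Reads on dec-1 stood far above those on other eggshell genes. Of a list of 26 genes for chorion, vitelline membrane and associated eggshell proteins, 25 were matched to rows. Together these 25 rows had 36.03 RPM in Yb ΔHel-C and 17.6 RPM in Yb WT, against 537 and 304 RPM for dec-1 alone. Among them 13 were listed at 0 in both columns, including the chorion genes Cp36, Cp38 and Cp19, and 4 passed the minimum of 1 RPM.

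The most abundant of these was fs(1)N, whose product is part of the vitelline membrane. It had 55 reads in Yb ΔHel-C (19.6 RPM) and 14 reads in Yb WT (4.74 RPM), a ratio of 4.14 (2.27 to 8.06). The chorion gene Cp18 had 8.92 RPM in Yb ΔHel-C and 6.43 RPM in Yb WT, a ratio of 1.39 (0.734 to 2.66). Per kilobase of locus Cp18 had 10.8 RPM in Yb ΔHel-C and 7.81 RPM in Yb WT, the highest of the list in each column, against 88.6 and 50.1 RPM per kilobase for dec-1. The vitelline membrane gene Vml had 6 reads in Yb ΔHel-C and 7 in Yb WT. The remaining gene past 2-fold, clos, was named after its values were seen and had 10 reads in Yb ΔHel-C and 2 in Yb WT, a ratio of 5.27 (1.12 to 49.5).

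For the 5 members that averaged at least 10 RPM, which leaves out Sep5, the nearest gene in log2 RPM over the 2 columns was found among genes not named by a CG or CR number. The nearest to Sep1 was Bem46, with 294 RPM in Yb ΔHel-C and 164 RPM in Yb WT, at a distance of 0.0060 on the log2 scale. The nearest to pnut was Sec31, with 488 RPM in Yb ΔHel-C and 161 RPM in Yb WT, at 0.11. For dec-1 it was TM9SF2 at 0.081, for Sep4 it was wek at 0.042 and for Sep2 it was esc at 0.031. With 2 values per gene such nearness describes levels in these columns and nothing more.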

How the data were processed

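Small RNAs of 23 to 30 nucleotides from Flag-Piwi purifications were sequenced in 4 libraries, 2 per group, per the labels' protocols. The authors' deposited table gives 1 column per group (0 columns of other samples), taken as RPM from the values, since its header names no unit. Per the submitters' processing notes, STAR, HTSeq, BDGP6 and dm6 were involved, without roles or versions. The sources used here do not give the strand setting, the rule for reads with several matches or how libraries were pooled.

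Of the nonzero values, 100% in each column came out as whole reads (tolerance 0.01 read). The total was 2803305 reads for Yb ΔHel-C (80.7% in listed rows) and 2955141 for Yb WT (69.2%). A 0 allows up to 1.07 RPM in Yb ΔHel-C and 1.02 RPM in Yb WT (3 reads).

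Ratios carry exact conditional (Clopper-Pearson) intervals, shares exact binomial ones and levels exact Poisson ones (SciPy 1.17.1). Genes averaging under 1 RPM over both columns were left out. An exact conditional binomial test on the recovered reads (Benjamini-Hochberg adjusted p of 0.05) compares the 2 columns and not the conditions. Together with the 2-fold limit it called 3041 genes higher and 226 lower. It and the intervals were tried on simulated counts drawn with counting error alone. Such counts cannot show how they behave with variation between libraries or with copied reads. Scaling factors came from edgeR 4.0.16. Row numbers were read as dates with openpyxl 3.1.5. Positions and synonyms are those of RefSeq's Release 6 annotation, and all 6 members matched it. Named genes are all members, the 3 most abundant genes of each list and every list gene past 2-fold at a mean of at least 10 RPM, apart from 3 genes of the cytokinesis list, some of which the rule gave, whose values are not reported here. Beside them, sip1, Orc6, Mlc-c, cno, chic, feo, fwd, polo and clos and the eggshell genes listed at 0 were named after their values were seen. The members and lists were chosen with earlier results of these data known.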

Additional observations from a re-analysis of the deposited data

How the results depend on the processing

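TMM and RLE scaling moved most values, and scaling to gene reads moved fewer. With TMM the log2 folds were -0.011 for Sep1, 0.82 for pnut, -0.36 for Sep4 and -0.021 for dec-1. With RLE they were -0.060 for Sep1, 0.89 for Sep2, 0.77 for pnut, -0.41 for Sep4 and -0.070 for dec-1. Scaled to gene reads they were 0.53 for Sep1, 1.36 for pnut and 0.52 for dec-1. With TMM and RLE, 0 members stayed 2-fold higher. Scaled to gene reads 2 members, 8 genes of the cytokinesis list and 2469 of all genes were 2-fold higher. Of all genes 557 were then 2-fold lower. On the cytokinesis list 2 genes were higher and 1 lower with TMM, and 1 higher and 1 lower with RLE. Over all genes 968 were higher and 1117 lower with TMM, and 857 and 1170 with RLE, so the share of higher genes among those past 2-fold was 46.4% and 42.3%, against 90.03% on the authors' totals (3403 higher, 377 lower). With no filter 3732 of 13931 genes were higher and 743 lower, and 3 of 25 eggshell genes were higher and 1 lower. At a mean of at least 10 RPM 2158 of 4552 genes were higher and 106 lower, and the 1 eggshell gene left was higher. With at least 1 RPM in both columns 3075 of 6961 genes were higher and 202 lower, and 1 of 3 eggshell genes was higher. With the exact test on reads added 226 genes were lower. At a limit of 1.5-fold, 5 of 6 members were higher, beside 4810 of all 7577 genes, and 683 genes were lower. The log2 fold of pnut minus that of Sep1, a comparison chosen after the values were seen, was 0.83 on the authors' totals and with pseudocounts of 0.1 and 1. It was also 0.83 under these scalings, which is no check, since a scaling factor cancels between genes of the same columns. No paired analysis was possible because the table holds 1 column per group, and no replicate could be left out for the same reason. Depth limits Sep5 most, with 11 and 7 reads.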

Other observations

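Genes lying next to the members in the annotation had values of their own. The plan named neighbours on the same strand, but the annotation used gave no strand, so either strand was taken. Ir7b, an ionotropic receptor gene that ends 192 bases from the locus of dec-1, had 187 RPM in Yb ΔHel-C and 50.1 RPM in Yb WT, a ratio of 3.73 (3.10 to 4.51). Ir7c, on the other side, had 3.21 RPM in Yb ΔHel-C and 2.71 RPM in Yb WT. Axs, 320 bases from Sep4, had 207 RPM in Yb ΔHel-C and 62.9 RPM in Yb WT, a ratio of 3.28 (2.78 to 3.89), against 1.39 for Sep4. The gene sol, 373 bases from Sep1, had 66.7 RPM in Yb ΔHel-C and 32.1 RPM in Yb WT, a ratio of 2.08 (1.61 to 2.69). CG16953, 295 bases from Sep2, had 178 RPM in Yb ΔHel-C and 73.4 RPM in Yb WT, a ratio of 2.42 (2.06 to 2.85). Beside Sep5, nito had 1638 RPM in Yb ΔHel-C and 1505 RPM in Yb WT, a ratio of 1.09 (1.04 to 1.13), and CG2915, 117 bases away, had 14.98 RPM in Yb ΔHel-C and 10.2 RPM in Yb WT. On 1 side of pnut the next gene, dpn, lies 4940 bases away and had 0 reads in Yb ΔHel-C and 1 read in Yb WT. On the other side the next gene, lncRNA:CR44276, lies 1298 bases away, and no row was matched to it. The other neighbour of Sep1, waw, had 0 RPM in both columns. Srp72, beside Sep2, had 4.99 RPM in Yb ΔHel-C and 2.37 RPM in Yb WT. CG4678, beside Sep4, had 1.07 RPM in Yb ΔHel-C and 0 RPM in Yb WT.

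An antisense RNA gene overlaps Sep2 by 354 bases (asRNA:CR46044) and another overlaps dec-1 by 396 bases (asRNA:CR43615). No row was matched to either. Within these overlaps, without a known strand setting, reads from the antisense RNA genes and from Sep2 or dec-1 cannot be told apart. How many reads lay there is not known here.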
